A study of Homo sapiens with 16 samples.

Results

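The 10 genes described here encode the HGF receptor MET, its close relative MST1R, the ligand HGF, proteins that control the activation of HGF outside the cell (ST14, SPINT1 and SPINT2), the docking protein GAB1, the ubiquitin ligases CBL and CBLB, and the receptor phosphatase PTPRJ. They were chosen by symbol, for their roles, from the 42351 genes in the table of read counts. The libraries held RNA of cells with wt MET (labelled A549, a lung adenocarcinoma line) and of cells with MET∆14 (NCI-H596, a lung adenosquamous carcinoma line) after 0, 3, 6 or 12 h of HGF, to compare how both forms of the receptor respond to their ligand. Each of the 8 conditions had 2 replicates, which gives 16 libraries. All cells, those at 0 h included, had been deprived of serum for 12 h by the sample labels, and the study's methods give a longer time. Each form of MET is represented by a single cell line, so the form of MET and the line cannot be told apart. Because 0 h was the only time without HGF, time in culture and HGF cannot be told apart either. The study's text describes EKVX, another lung adenocarcinoma line, as its cells with wt MET, whereas the labels of these libraries name A549.

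HGF is secreted as an inactive single chain, and matriptase (ST14) is among the serine proteases that cleave it into the active form, while HAI-1 (SPINT1) and HAI-2 (SPINT2) inhibit such proteases. Binding of active HGF lets MET phosphorylate itself and bind the docking protein GAB1, which carries the signal to the RAS and PI3K pathways. The ligases CBL and CBLB attach ubiquitin to active receptors, which marks them for uptake and degradation, and PTPRJ (DEP-1) removes phosphate from MET. MST1R (RON) is a receptor of the same family whose ligand is macrophage-stimulating protein.

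The stretch that is missing from MET∆14 is shown here because it carries the site through which CBL binds MET. MET lies on the plus strand of chromosome 7 (hg38 chr7:116672196-116798377), and exon 14 covers chr7:116771849-116771989. It is 141 bases long, a multiple of 3. Its loss therefore removes 47 codons from the coding sequence of 1390 codons and leaves the reading frame intact. The exon begins inside codon 963 and ends inside codon 1010. It is the 14th of 21 exons of the transcript ENST00000397752.8. The sequence of the plus strand reads 5′ to 3′, and the capitals mark the codon, starting at base 120 of the exon, of the tyrosine that CBL binds when it is phosphorylated.
MET exon 14: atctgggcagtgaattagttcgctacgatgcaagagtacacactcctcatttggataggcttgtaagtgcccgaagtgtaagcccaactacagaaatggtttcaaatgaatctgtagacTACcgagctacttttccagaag
Counts per gene do not separate transcripts with and without this exon, so the libraries could not be checked for its loss here.

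The gene counts summed to between 13226488 and 21970052 per wt MET library and to between 10158590 and 23909304 per MET∆14 library. The study describes the replicates as biological duplicates, and how the cultures were separated is not given in the sources used here. The edgeR filter kept 15067 genes, among them 9 of the 10 genes described here, and HGF was the gene it removed. CDKN2A and MTAP, a gene pair that A549 cells are known to lack, had 0 counts and 5 to 23 counts in the 8 wt MET libraries, against 1466 to 3464 and 883 to 3141 counts with MET∆14. The squamous markers KRT5, TP63 and DSG3 were high in the MET∆14 libraries (KRT5 between 1740 and 2460 CPM, counts scaled to library size), and the other squamous marker, SOX2, was at most 2.35 CPM. The lung adenocarcinoma markers NKX2-1, NAPSA and SFTPB were at or near 0 in the wt MET libraries (at most 1.27 CPM for NKX2-1). Of the 4 epithelial markers, KRT8 (493 to 991 CPM) and KRT18 (1210 to 1520 CPM) were high in the wt MET libraries. EPCAM (0.868 to 2.97 CPM) and CDH1 (2.54 to 12.6 CPM) were low there. With MET∆14, EPCAM (24.4 to 37.4 CPM) and CDH1 (80.7 to 125 CPM) were higher. KRT8 was at 541 to 904 CPM and KRT18 at 358 to 701 CPM with MET∆14. Of the 4 fibroblast markers, COL3A1 was high with MET∆14 (170 to 328 CPM), and COL1A1 was between 10.8 and 33.3 CPM over both lines. COL1A2 had at most 3 counts and PDGFRB at most 10 counts in any library. The leukocyte markers PTPRC, CD3E and CD79A had at most 5 counts in any library, while CD68 reached 154 CPM. The 12 h MET∆14 replicates stood apart from each other: their chi-square per degree of freedom over all genes tested was 32.88, against 2.692 to 9.416 in the other 7 pairs. For the 10 genes, results for MET∆14 at 12 h are therefore given with each of these replicates left out where this changed a call. For the other pathway genes named below, only the number of calls was followed with a library left out. Whether their single calls depend on a 12 h replicate was not tested.

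The levels of different genes were compared as CPM per kilobase of annotated exon. In wt MET cells at 0 h, MET was the most abundant of the 10 transcripts (172 ± 6.72 CPM per kilobase, SD, n = 2), followed by SPINT2 (59.7 ± 1.32). PTPRJ (6.08 ± 0.842) and CBL (5.92 ± 0.817) came next, and their libraries overlapped. CBLB, MST1R, SPINT1 and GAB1 followed, at 3.01, 1.61, 0.292 and 0.204 CPM per kilobase, without overlap between neighbours. ST14 and HGF were at the bottom, and their libraries overlapped at 0 h. In MET∆14 cells at 0 h, SPINT2 (75.0 ± 3.84 CPM per kilobase) was above MET (51.2 ± 0.0798), and SPINT1 (41.7 ± 2.89), MST1R (22.6 ± 0.286) and ST14 (7.86 ± 0.658) came next. CBL, PTPRJ, CBLB and GAB1 lay below these, at 5.88, 3.43, 2.30 and 1.75 CPM per kilobase, with HGF at 0. No neighbours overlapped in the MET∆14 order at 0 h, whereas at 12 h the libraries of MST1R and SPINT1 overlapped, as did those of CBLB and GAB1. MET was first in wt MET cells and behind SPINT2 in MET∆14 cells at all 4 times.

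**Figure D1:**
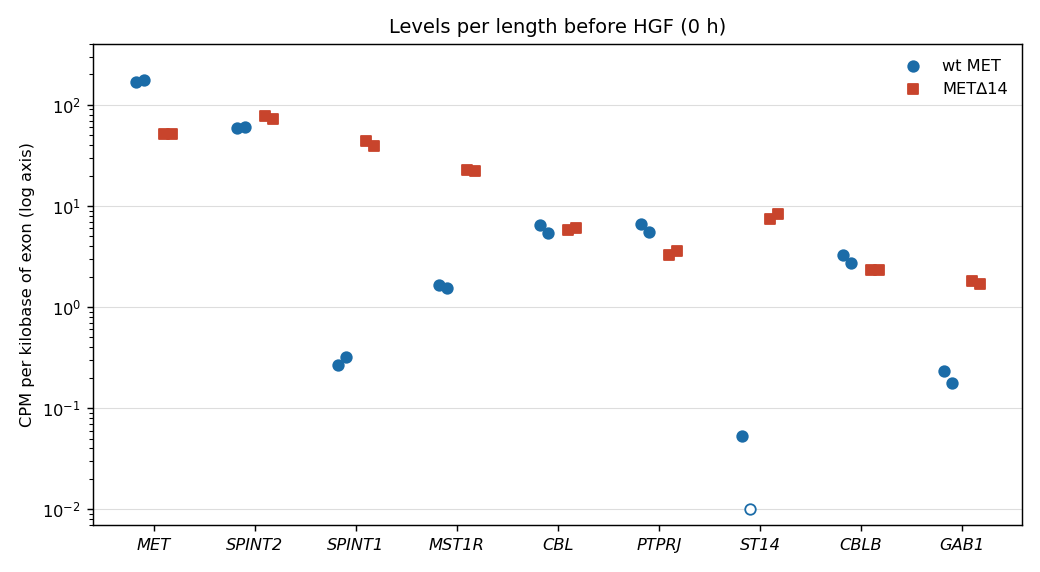
Level of the 9 detected genes before HGF, in CPM per kilobase of exon on a log axis, with 1 point per library (circles, wt MET; squares, MET∆14; an open circle at the lower edge marks a library with 0 counts). MET leads in wt MET cells (167 and 176 CPM per kilobase), while SPINT1, MST1R, ST14 and GAB1 lie higher in both MET∆14 libraries than in both wt MET libraries.

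Before HGF, 8 of the 9 tested genes differed between the lines (edgeR's quasi-likelihood test, Benjamini-Hochberg adjusted p under 0.05). This count has to be read against a background of 80.2% of all genes tested that differed at 0 h. MST1R, ST14, SPINT1, SPINT2 and GAB1 were higher with MET∆14 (background for this direction 40.6%), and MET, CBLB and PTPRJ were lower (background 39.6%). The median log2 difference of the 9 genes was 0.33, and that of all genes tested was 0.02 (0.0154). These counts and this median include ST14, which was at the floor of 3 counts in wt MET cells at 0 h. It passed the filter on its MET∆14 counts alone, so its call at 0 h is not separate evidence. SPINT1 stood at 155 and 140 CPM in the MET∆14 libraries and at 0.941 and 1.13 CPM in the wt MET libraries, which held 13 and 16 counts. The libraries of the lines did not overlap, and the log2 difference was 7.14 (SE 0.187, adjusted p = 8.01e-14). This SE was derived from the F statistic and understates the counting error of the 13 and 16 counts. For wt MET at 3 h against 0 h, the SE of SPINT1 was 0.394. MST1R was 14.0-fold higher with MET∆14 (log2 difference 3.81, SE 0.158, adjusted p = 7.2e-12), with 120 and 118 CPM against 8.75 and 8.13. GAB1 was 8.56-fold higher with MET∆14, at 18.2 and 16.9 CPM against 2.32 and 1.77 (log2 difference 3.10, SE 0.234, adjusted p = 6.47e-09). ST14 had 467 and 690 counts in the MET∆14 libraries and 3 and 0 counts in the wt MET libraries, a ratio of 304 with a 95% counting interval from 104 to 1480. In the other direction, MET was 3.35-fold lower with MET∆14 (log2 difference -1.75, SE 0.0892, adjusted p = 6.92e-11), with 370 CPM in both libraries against 1210 and 1270. PTPRJ differed by -0.82 (SE 0.122, adjusted p = 1.49e-05) and CBLB by -0.39 (SE 0.117, adjusted p = 0.00678), and leaving out replicate 1 of wt MET at 0 h raised the adjusted p of CBLB to 0.0917. SPINT2 differed by 0.33 (SE 0.114, adjusted p = 0.015). Its adjusted p rose above the threshold in 2 of the 16 fits that left out a library, up to 0.0761. CBL was not called (log2 difference -0.01, SE 0.151, adjusted p = 0.955), and its sign turned with the library left out.

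After HGF, 6 of the 9 tested genes were called at any time in wt MET cells (F test over the 3 times, adjusted p under 0.05), against 40.3% of all genes tested. MET and CBL were higher on average (background for higher 19.2%), and MST1R, SPINT2, CBLB and PTPRJ lower (background for lower 21.1%). These directions follow the sign of the mean alone. In wt MET cells the means of CBLB (-0.05, SE 0.0946) and MST1R (-0.19, SE 0.154) were not called themselves. With MET∆14, 5 were called, against 54.1% of all genes tested: MST1R and CBL were higher on average (background 25.6%), and SPINT1, GAB1 and CBLB lower (background 28.5%). The median of the mean log2 fold change was -0.19 in wt MET cells and -0.16 in MET∆14 cells, and over all genes tested it was -0.05 in both. Without ST14, which was at the floor of 3 counts in wt MET cells at 0 h, the median in wt MET cells was -0.21 over 8 genes. Tested directly, the response differed between the lines for 2 of the 9 genes, MST1R and CBLB, against 37.6% of all genes tested. MST1R differed toward higher values with MET∆14 (background 20.3%) and CBLB toward lower values (background 17.3%). When the F test used 3 and 6 h only, a choice made after seeing how the 12 h replicates differed, CBLB remained called in the test of the difference and MST1R did not (adjusted p = 0.112). Without replicate 1 or replicate 2 of MET∆14 at 12 h, 6 genes were called in this test, and the share of all genes tested that were called rose as well, to 46.7% and 54.1%. When line and time entered as additive terms, which tests the change averaged over both lines and does not show that both lines share it, 5 of the 9 genes were called (CBL, SPINT1, GAB1, CBLB and PTPRJ), against 30.6% of all genes tested. Of these, the response of CBLB differed between the lines, and SPINT1 and GAB1 were not called in wt MET cells alone.

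**Figure D2:**
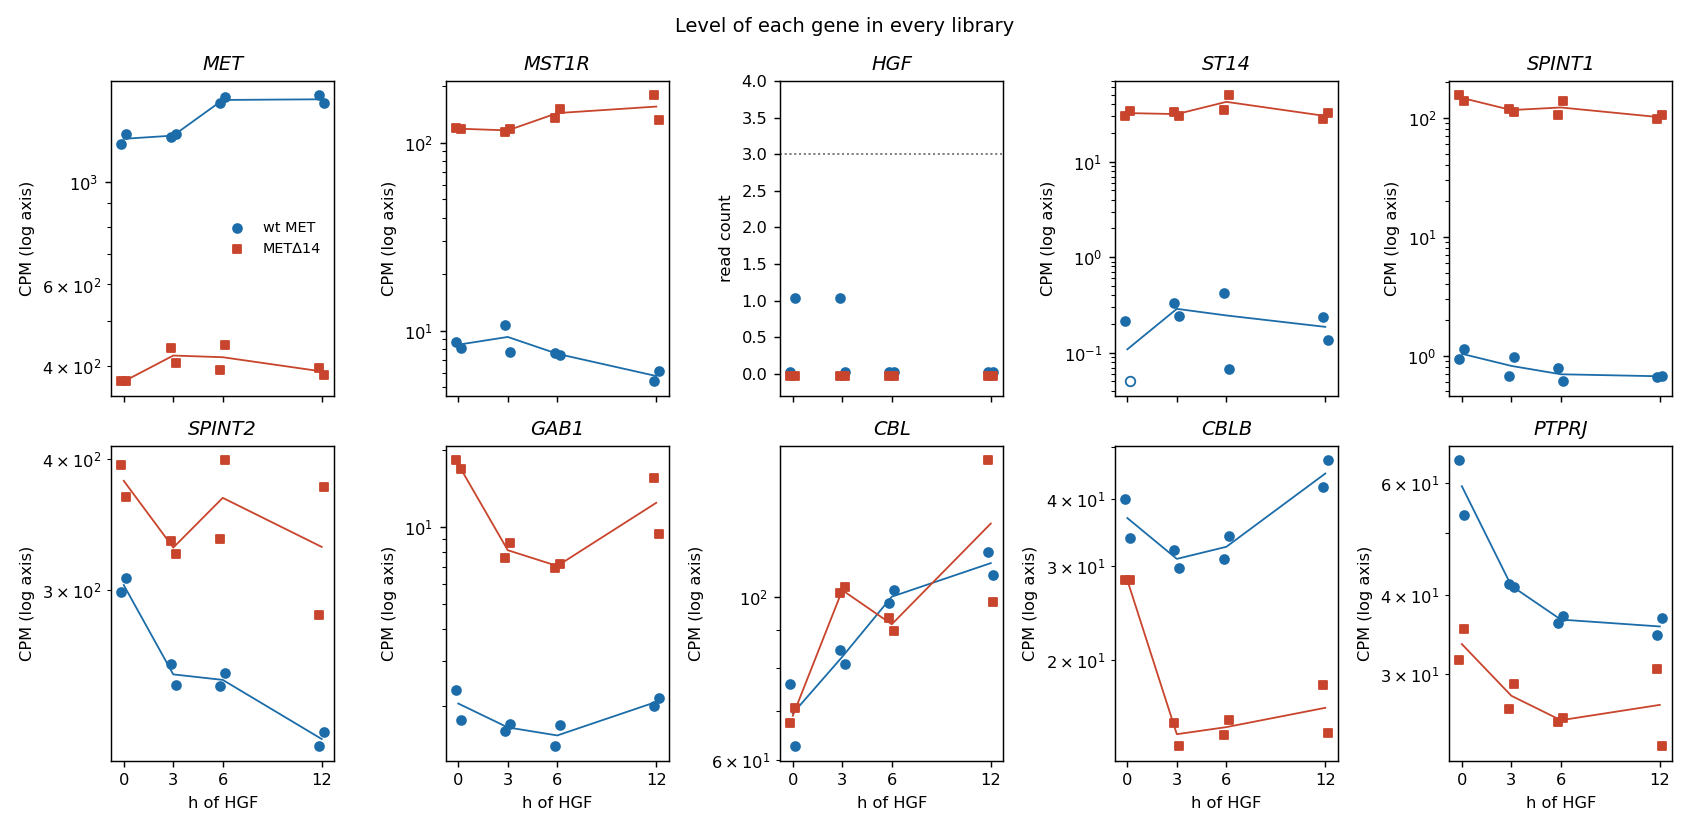
Level of each of the 10 genes in all 16 libraries against hours of HGF, in CPM on log axes (HGF as read counts, with a dotted line at the floor of 3 counts). Points are single libraries (circles, wt MET; squares, MET∆14; open symbol, 0 counts, drawn at the lower edge), and lines join the means of 2 replicates. The lines' libraries are apart for MST1R, SPINT1, ST14 and GAB1 at every time, and for CBL they overlap at 0 and 12 h.

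At single times against 0 h, 1, 3 and 5 of the 9 genes were called in wt MET cells at 3, 6 and 12 h, against 17.4%, 34.2% and 35.1% of all genes tested. In MET∆14 cells 4 were called at each time, against 31.7%, 44.1% and 38.3%. The difference between the lines was called for 1, 1 and 2 genes, against 17.4%, 30.2% and 24% of all genes tested.

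The receptor MET was measured in wt MET cells at 1210 and 1270 CPM at 0 h, 1250 and 1270 CPM at 3 h, 1480 and 1530 CPM at 6 h, and 1540 and 1480 CPM at 12 h. Both libraries at 6 h and both at 12 h lay above all libraries at 0 and 3 h. MET rose by 0.28 log2 units at 6 h (SE 0.0865, adjusted p = 0.0213) and by 0.29 at 12 h (SE 0.0865, adjusted p = 0.0185), which is 1.21-fold and 1.22-fold, and it was not called at 3 h (log2 fold change 0.02, adjusted p = 0.897). With MET∆14, MET was at 370 CPM in both libraries at 0 h, at 437 and 405 CPM at 3 h, at 392 and 443 CPM at 6 h, and at 396 and 382 CPM at 12 h. All 6 libraries after HGF lay above those at 0 h. The change was not called at any time (log2 fold changes 0.19, 0.17 and 0.07, F test adjusted p = 0.204). The difference between the lines was not called (adjusted p = 0.1), and the mean difference was -0.05 (SE 0.1). The single calls in wt MET cells were lost without replicate 1 at 0 h (adjusted p = 0.113 at 6 h and 0.101 at 12 h) or without either replicate of the time itself (0.0563 and 0.103 at 6 h, 0.139 and 0.0626 at 12 h). DESeq2 called both the change in MET∆14 cells (adjusted p = 0.0461) and the difference (adjusted p = 0.00701). The F test of the difference for MET also passed the threshold without replicate 1 (adjusted p = 0.0163) or replicate 2 (0.031) of MET∆14 at 12 h, and that of the change in MET∆14 cells without replicate 1 at 12 h (0.0482). The call in wt MET cells was lost without replicate 2 at 6 h (0.0674) and without replicate 1 at 12 h (0.0599).

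The genes whose pattern was most like that of MET were sought among 8570 genes by Pearson's r of log2 CPM after each line's mean had been subtracted, over 16 libraries. Such r are a description across libraries that share their conditions. CTNNA1, which encodes the adherens junction protein alpha-catenin, had the highest r (0.931), followed by ATP6V0A1, a subunit of the proton pump of endosomes and lysosomes (0.93), LARP1B (0.922), the ubiquitin-conjugating enzyme gene UBE2D1 (0.906) and SMIM13 (0.892). CIAO3 (-0.893), AP3M1 (-0.888) and DHTKD1 (-0.887) were the least like MET. Among the genes described here, CBL was the most like MET (0.603) and PTPRJ the least (-0.707). This order held within wt MET cells (0.855 and -0.815) and not within MET∆14 cells (0.367 and -0.454). There ST14 had the highest r (0.55) and GAB1 the lowest (-0.715).

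MST1R, on the minus strand of chromosome 3 (chr3:49887002-49903873), moved in opposite directions in the lines. With wt MET, it was measured at 8.75 and 8.13 CPM at 0 h, 10.8 and 7.76 CPM at 3 h, 7.63 and 7.47 CPM at 6 h, and 5.38 and 6.12 CPM at 12 h. The 12 h libraries were below all others of that line. In MET∆14 cells it was at 120 and 118 CPM at 0 h, 114 and 119 CPM at 3 h, 136 and 152 CPM at 6 h, and 179 and 133 CPM at 12 h. Here the 6 h and 12 h libraries were all above those at 0 and 3 h, and the 12 h replicates differed by 0.44 log2 units. At 12 h, MST1R fell by 0.56 in wt MET cells (log2 fold change -0.56, SE 0.193, adjusted p = 0.0344) and rose by 0.40 in MET∆14 cells (SE 0.126, adjusted p = 0.0209). The difference of these changes was 0.96 (SE 0.23, adjusted p = 0.00707), and the F test over the 3 times gave an adjusted p of 0.00452. Without replicate 1 of MET∆14 at 12 h the difference at 12 h was 0.72, and without replicate 2 it was 1.16. The calls within each line were lost in some fits that left out a library and so left 1 library in a condition. The fall at 12 h in wt MET cells itself lay between -0.65 and -0.47 over the 16 such fits. Without replicate 1 of MET∆14 at 12 h the rise of MST1R in that line was 0.16 (adjusted p = 0.214), and it also missed the threshold without either replicate at 0 h (0.0846 and 0.0975). The fall in wt MET cells missed it without any 1 of the libraries at 0 h (0.164 and 0.0715) or 12 h (0.189 and 0.0537). The F test in wt MET cells missed the threshold without replicate 1 at 0 h (adjusted p = 0.0726), 3 h (0.0731) or 12 h (0.187) and without replicate 2 at 12 h (0.0611), and that in MET∆14 cells without either replicate at 0 h (0.055 and 0.0595) or replicate 1 at 3 h (0.0636). As a result of both receptors' levels, the MST1R transcript per kilobase was 36.0% to 62.4% of MET in the MET∆14 libraries and 0.481% to 1.19% in the wt MET libraries. Genes on the other strand cover 6.8% of the exons of MST1R, and the use of strand in counting is not given in the sources used here.

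Both receptor genes moved at 12 h or before, and their promoters are therefore shown, as the 250 bases before the start in RefSeq (GRCh38.p14). MET's stretch is chr7:116671946-116672195 on the plus strand, and that of MST1R is chr3:49903874-49904123 on the minus strand. Capitals mark matches, on either strand, to 4 motifs: AP-1 (TGANTCA), ETS (CCGGAAGT), an E-box (CACCTG) and the GC box (GGGCGG).
MET promoter: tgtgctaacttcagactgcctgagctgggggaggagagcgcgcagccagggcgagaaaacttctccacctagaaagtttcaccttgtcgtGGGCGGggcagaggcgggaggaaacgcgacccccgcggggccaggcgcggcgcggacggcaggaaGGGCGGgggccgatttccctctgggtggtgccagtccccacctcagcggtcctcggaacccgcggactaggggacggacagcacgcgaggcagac
MST1R promoter: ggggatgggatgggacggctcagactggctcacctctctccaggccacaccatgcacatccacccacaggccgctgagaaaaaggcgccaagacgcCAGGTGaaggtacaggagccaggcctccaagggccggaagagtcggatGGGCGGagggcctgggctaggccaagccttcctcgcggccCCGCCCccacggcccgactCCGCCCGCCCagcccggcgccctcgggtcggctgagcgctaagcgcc
The MET stretch held 2 GC boxes. The MST1R stretch held 4 GC boxes, a pair of which overlap, and 1 E-box. None of the AP-1 or ETS letters were in these windows. Of 35116 promoter stretches of the same length, 42.6% held a GC box, 17.5% the E-box, 6.6% AP-1 and 3.4% ETS. Promoters of SPINT1, HGF and CBLB were also in the table and held 3, 0 and 1 GC boxes and none of the other motifs.

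The transcript of the ligand HGF (chr7:81699010-81770438) was not detectable at this depth. The 8 wt MET libraries held 2 counts in all, 1 at 0 h and 1 at 3 h. The 8 MET∆14 libraries held 0 counts, which allows a level of up to 0.0229 CPM over these libraries for counting error only. HGF was added to the medium as a protein, which these counts do not measure.

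ST14 (chr11:130159782-130210362), the protease gene, was almost restricted to the MET∆14 libraries. They held 404 to 690 counts at 0 and 3 h and 347 to 1157 counts at 6 and 12 h. In CPM, ST14 was at 30.4 and 34.3 at 0 h, 32.9 and 30.2 at 3 h, 35.2 and 49.6 at 6 h, and 28.1 and 32.2 at 12 h. The libraries at 6 h lay above the others, and ST14 was not called after HGF (F test adjusted p = 0.0754, log2 fold change 0.40 at 6 h with SE 0.176). It passed the threshold with no filter on low counts (adjusted p = 0.00123) and without replicate 1 at 6 h (0.0287) or replicate 2 at 12 h (0.0243). In wt MET cells ST14 had between 0 and 7 counts per library, 26 counts over 8 libraries, and no fold change is given for it.

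SPINT1 (chr15:40844018-40858207), the gene of the inhibitor HAI-1, was measured in MET∆14 cells at 155 and 140 CPM at 0 h, 120 and 113 CPM at 3 h, 106 and 139 CPM at 6 h, and 97.9 and 105 CPM at 12 h. Each library after HGF lay below both libraries at 0 h. SPINT1 fell by 0.34 log2 units at 3 h (SE 0.11, adjusted p = 0.0263) and by 0.54 at 12 h (SE 0.111, adjusted p = 0.0013), and its change of -0.26 at 6 h was not called (adjusted p = 0.0626). The call at 3 h was lost without replicate 1 at 0 h (0.194), without either replicate at 3 h (0.0816 and 0.156) and with DESeq2 (0.0697). The F test over the times (adjusted p = 0.00513) missed the threshold without replicate 1 of MET∆14 at 0 h (0.0587) and when that line was fitted alone (0.0568). With wt MET, SPINT1 held 9 to 16 counts per library. Its log2 fold changes there were -0.36, -0.56 and -0.63 with SE between 0.385 and 0.394, and they were not called (adjusted p = 0.513). The lines' difference was not called either (mean difference 0.13, SE 0.316, F test over the times adjusted p = 0.928).

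SPINT2 (chr19:38244035-38292615), the gene of the inhibitor HAI-2, was abundant in both lines. In wt MET cells it was measured at 299 and 308 CPM at 0 h, 255 and 244 CPM at 3 h, 243 and 250 CPM at 6 h, and 213 and 220 CPM at 12 h. The groups at 0, 3 and 12 h did not overlap. SPINT2 fell by 0.49 log2 units at 12 h (SE 0.114, adjusted p = 0.00406), and the F test gave an adjusted p of 0.0183. The F test call was lost without either replicate at 0 h or at 12 h. The fall at 12 h itself lay between -0.51 and -0.47 log2 units with any 1 library left out. With MET∆14, SPINT2 ranged from 284 to 399 CPM with overlapping times, and no change was called (adjusted p = 0.249). The 12 h replicates there were at 284 and 376 CPM, and without replicate 2 the F test passed the threshold (0.000804). The difference between the lines was not called (mean difference 0.20, SE 0.131, F test over the times adjusted p = 0.396), but leaving out replicate 1 of MET∆14 at 12 h gave a call (0.00746). Other genes cover 12.2% of the exons of SPINT2 on the opposite strand and 4.8% on the same strand, which leaves its counts uncertain.

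Set against both inhibitors per kilobase, ST14 amounted to between 6.09% and 10.2% of the sum of SPINT1 and SPINT2 in the 8 MET∆14 libraries, the lowest being at 0 h and the highest at 6 h. In the 8 wt MET libraries it amounted to between 0 and 0.215%. SPINT1 made up 28.5% to 36.0% of both inhibitors with MET∆14 and 0.346% to 0.568% with wt MET. The lines did not overlap in either ratio. These ratios are given as a description, and no test of them was run.

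GAB1 (chr4:143336876-143474565), the docking protein gene, dropped early in MET∆14 cells. It was measured there at 18.2 and 16.9 CPM at 0 h, 7.57 and 8.66 CPM at 3 h, 6.89 and 7.20 CPM at 6 h, and 15.5 and 9.36 CPM at 12 h. The libraries at 3 and 6 h lay below all others, and both libraries at 12 h lay between these and 0 h. GAB1 fell 2.15-fold at 3 h (-1.10 log2 units, SE 0.193, adjusted p = 0.000467) and 2.48-fold at 6 h (-1.31 log2 units, SE 0.193, adjusted p = 6.43e-05). At 12 h its log2 fold change was -0.47 (SE 0.186, adjusted p = 0.0609), between -0.90 without replicate 1 and -0.18 without replicate 2 of that time. The F test over the times was called in every fit that left out a library (adjusted p = 0.000139 with all libraries). With wt MET, GAB1 held 21 to 42 counts per library (1.39 to 2.32 CPM) and was not called (adjusted p = 0.52). The difference between the lines was -0.80 at 3 h (SE 0.372) and -0.90 at 6 h (SE 0.368), which was not called (F test adjusted p = 0.183). It was called without replicate 1 or replicate 2 of MET∆14 at 12 h (0.0283 and 0.0232).

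CBL (chr11:119206298-119313926), which encodes the ligase that binds the exon 14 tyrosine shown above, rose in both lines. In wt MET cells it was measured at 76.2 and 62.6 CPM at 0 h, 84.7 and 81.0 CPM at 3 h, 97.9 and 102 CPM at 6 h, and 115 and 107 CPM at 12 h. The 4 times did not overlap. CBL rose by 0.53 log2 units at 6 h (SE 0.151, adjusted p = 0.0141) and by 0.68 at 12 h (SE 0.15, adjusted p = 0.00296), which is 1.44-fold and 1.60-fold. The call at 6 h was lost without replicate 2 at 0 h (0.102) or at 6 h (0.0623). The F test in wt MET cells (adjusted p = 0.00914) missed the threshold without replicate 2 at 0 h (0.0629). In MET∆14 cells CBL was at 67.3 and 70.5 CPM at 0 h, 101 and 103 CPM at 3 h, 93.6 and 89.8 CPM at 6 h, and 153 and 98.2 CPM at 12 h. All libraries after HGF lay above both at 0 h, and the 12 h replicates differed by 0.64 log2 units. CBL rose by 0.57 at 3 h (SE 0.15, adjusted p = 0.0091), by 0.41 at 6 h (SE 0.149, adjusted p = 0.0368) and by 0.87 at 12 h (SE 0.149, adjusted p = 0.000378), the last being 0.51 without replicate 1 and 1.14 without replicate 2 of that time. The call at 3 h was lost without replicate 1 at 0 h (0.0619), and that at 6 h without any 1 of the libraries at 0 h (0.157 and 0.0972) or 6 h (0.135 and 0.0936). The F test in MET∆14 cells gave an adjusted p of 0.00154 and was called in every fit that left out a library. The lines' difference was not called (mean difference 0.13, SE 0.174, F test over the times adjusted p = 0.319), but it was without replicate 1 (0.00514) or replicate 2 (0.000459) of MET∆14 at 12 h. The difference at 12 h was -0.17 without the former and 0.46 without the latter. MCAM, on the other strand, covers 4.3% of the exons of CBL.

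CBLB (chr3:105655461-105869552), the gene of the related ligase CBL-B, behaved unlike CBL in MET∆14 cells, where it was measured at 28.2 and 28.3 CPM at 0 h, 15.3 and 13.8 CPM at 3 h, 14.5 and 15.5 CPM at 6 h, and 18.0 and 14.6 CPM at 12 h. Every library after HGF lay far below both libraries at 0 h. CBLB fell 1.95-fold at 3 h (-0.96 log2 units, SE 0.125, adjusted p = 3.1e-05), 1.88-fold at 6 h (-0.91, SE 0.122, adjusted p = 2.8e-05) and 1.71-fold at 12 h (-0.78, SE 0.124, adjusted p = 0.000183). With wt MET, it was at 40.0 and 33.8 CPM at 0 h, 32.1 and 29.8 CPM at 3 h, 31.0 and 34.2 CPM at 6 h, and 42.1 and 47.3 CPM at 12 h. The libraries at 12 h were the highest of that line, those at 6 h overlapped with those at 0 and at 3 h. The F test called CBLB in wt MET cells (adjusted p = 0.00681), while no single time was called against 0 h (log2 fold changes -0.25, -0.18 and 0.27, adjusted p = 0.164, 0.261 and 0.0758). That call was lost without replicate 2 at 12 h (0.103). The response of CBLB differed between the lines at each time, by -0.71 at 3 h (SE 0.171, adjusted p = 0.00927), by -0.73 at 6 h (SE 0.169, adjusted p = 0.00406) and by -1.05 at 12 h (SE 0.168, adjusted p = 0.0004). The F test of the difference (adjusted p = 0.00106) stayed below the threshold in each fit that left out a library, at most at 0.00644.

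PTPRJ (chr11:47980425-48170839), the phosphatase gene, was measured in wt MET cells at 65.0 and 53.4 CPM at 0 h, 41.5 and 41.1 CPM at 3 h, 36.1 and 37.0 CPM at 6 h, and 34.6 and 36.7 CPM at 12 h. Both libraries at 0 h lay above all others, and those at 6 and 12 h overlapped. PTPRJ fell by 0.52 log2 units at 3 h (SE 0.122, adjusted p = 0.00787), by 0.70 at 6 h (SE 0.122, adjusted p = 0.000486) and by 0.73 at 12 h (SE 0.121, adjusted p = 0.000321). The call at 3 h was lost without replicate 1 at 0 h (0.113) or either replicate at 3 h (0.0633 and 0.0687), and the F test (adjusted p = 0.000517) in no fit that left out a library. With MET∆14, it was at 31.6 and 35.3 CPM at 0 h, 26.5 and 29.0 CPM at 3 h, 25.2 and 25.6 CPM at 6 h, and 30.6 and 23.1 CPM at 12 h. Each library after HGF lay below both at 0 h. At 12 h PTPRJ changed by -0.30 log2 units (SE 0.126, adjusted p = 0.0699), by -0.54 without replicate 1 and by -0.14 without replicate 2 of that time. At 6 h it fell by 0.40 log2 units (SE 0.125, adjusted p = 0.0171), a call lost without replicate 2 at 0 h (0.125) or either replicate at 6 h (0.0673 and 0.0658), while the F test over the times missed the threshold (adjusted p = 0.0573), which it passed with DESeq2's size factors (0.0477), with no filter (0.0383), with at least 10 counts in every library (0.0333), over 3 and 6 h alone (0.0411), without either wt MET replicate at 0 h (0.0448 and 0.035) and without either MET∆14 replicate at 12 h (0.00197 and 0.00502). The difference between the lines was not called (mean difference 0.33, SE 0.141, F test over the times adjusted p = 0.236), but leaving out replicate 2 of MET∆14 at 12 h gave a call (0.012). In the additive model PTPRJ was called, with a mean log2 fold change of -0.49 over both lines (adjusted p = 0.00318).

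**Figure D3:**
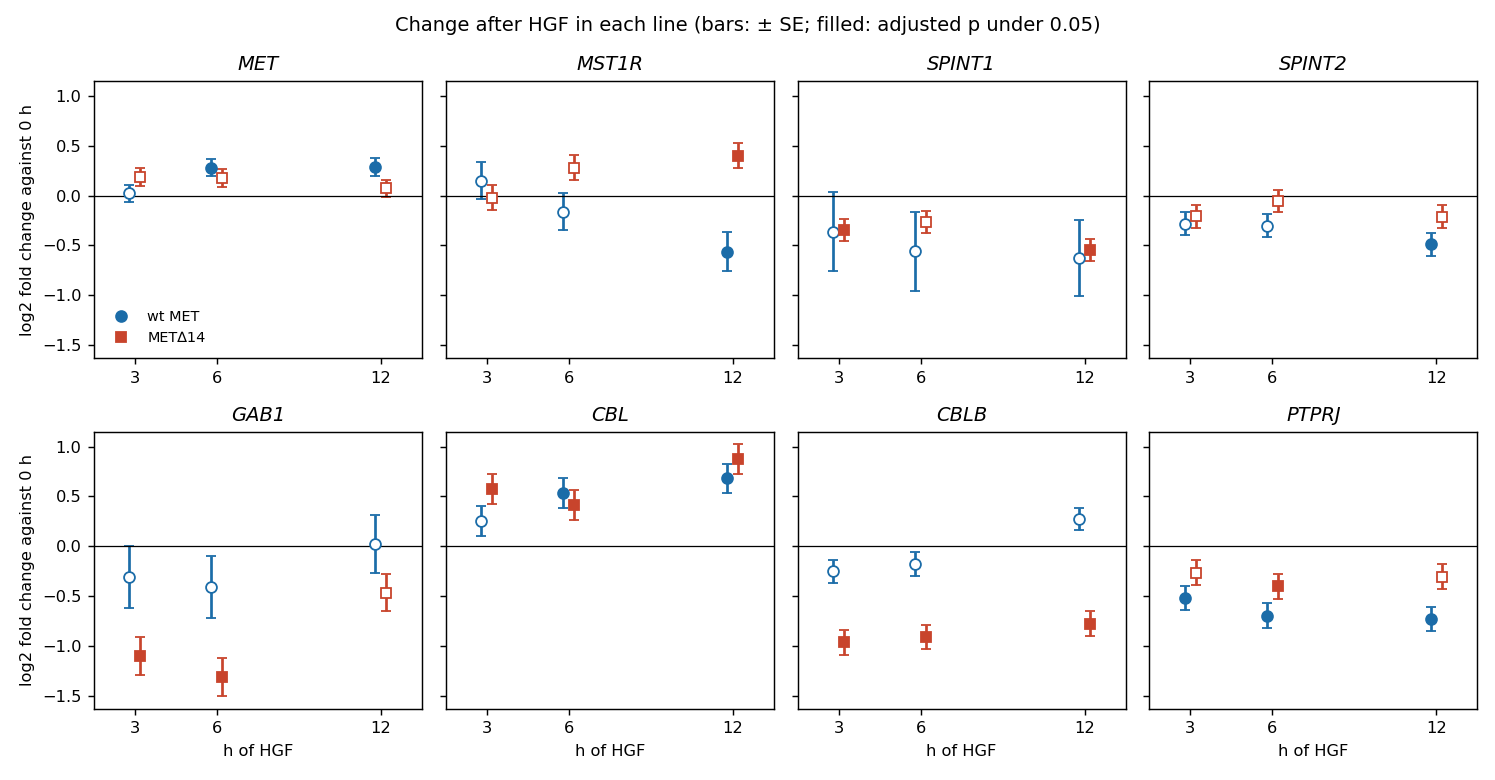
Log2 fold change against 0 h of 8 genes at 3, 6 and 12 h of HGF in each line (circles, wt MET, and squares, MET∆14). Bars show ± SE derived from edgeR's F statistic, and filled symbols mark an adjusted p under 0.05. CBLB lies between -0.96 and -0.78 with MET∆14 and between -0.25 and 0.27 with wt MET. CBL lies above 0 in both lines, and the symbols of MST1R part at 12 h (-0.56 and 0.40). ST14 and HGF are not drawn because their wt MET counts were too low.

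Around these genes, 67 other genes of HGF and MET signalling were grouped into 5 lists by function, of which 60 were tested. In wt MET cells, 30 of the 60 were called at any time, 18 higher and 12 lower on average (all genes tested: 40.3%, 19.2% and 21.1%). In MET∆14 cells, 44 were called, 24 higher and 20 lower (all genes tested: 54.1%, 25.6% and 28.5%). The response differed between the lines for 30 of the 60, with 16 differences toward higher and 14 toward lower values with MET∆14 (all genes tested: 37.6%, 20.3% and 17.3%). At 0 h, 49 of the 60 differed (28 higher and 21 lower with MET∆14), a share of 81.7% against 80.2% of all genes tested. The count at 0 h includes PRSS8 and TMPRSS2, which passed the filter on their MET∆14 counts alone. The median of the mean log2 fold change of the 60 genes was 0.04 in each line, against -0.05 over all genes tested. Without PRSS8 and TMPRSS2, which were at the floor in wt MET cells at 0 h, it was 0.06 in wt MET cells over 58 genes. The additive model called 19 of the 60 genes, a share of 31.7% against 30.6% of all genes tested.

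Among genes for the activation of HGF and of macrophage-stimulating protein, 4 of 8 were tested, and 3 of these were called lower in MET∆14 cells (28.5% of all genes tested). In wt MET cells and in the difference between the lines 0 were called (40.3% and 37.6% of all genes tested). TMPRSS2 held 0 counts in every wt MET library and PRSS8 at most 2. For these genes the tests could therefore not decide whether a fall was particular to MET∆14, and for the others it was not shown. PRSS8, which encodes the membrane protease prostasin, went from 30.6 ± 4.16 CPM (SD, n = 2) at 0 h to 15.4 ± 0.192 at 3 h and 14.6 ± 3.34 at 6 h, and stood at 23.7 ± 5.07 at 12 h, in MET∆14 cells (mean log2 fold change -0.80, F test adjusted p = 0.00122), while no wt MET library held more than 2 counts. An antisense gene covers 12.0% of the exons of PRSS8. MST1, the gene of the ligand of MST1R, fell in MET∆14 cells from 4.57 ± 0.913 CPM before HGF to 1.36 ± 1.40 CPM at 12 h, where the replicates held 43 and 4 counts (mean log2 fold change -1.28, SE 0.347, F test adjusted p = 0.0324). With wt MET, MST1 was between 0.946 and 1.39 CPM on average at each time and was not called (adjusted p = 0.886), nor was the difference (adjusted p = 0.597).

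Of 17 genes for docking and signal transduction, 8 were called in wt MET cells (6 higher, 2 lower), 14 in MET∆14 cells (6 higher, 8 lower) and 10 in the difference, against 40.3%, 54.1% and 37.6% of all genes tested. The exchange factor genes SOS1 and SOS2, whose products load RAS with GTP, went apart. SOS2 rose in wt MET cells from 89.0 ± 2.19 CPM before HGF to 161 ± 7.36 CPM at 12 h (mean log2 fold change 0.65, SE 0.0761), and was lower on average after HGF in MET∆14 cells (mean -0.19, SE 0.0755, F test adjusted p = 0.00169), which gives a difference of -0.85 (SE 0.106, F test adjusted p = 6.64e-05). SOS1 fell in MET∆14 cells from 57.9 ± 1.66 CPM before HGF to 34.4 ± 1.89 CPM at 6 h (mean -0.60, SE 0.0912) and was not called in wt MET cells (adjusted p = 0.125), with a difference of -0.76 (SE 0.132, F test adjusted p = 0.00192). GAB2, a docking protein gene related to GAB1, fell in both lines, from 23.8 ± 3.78 to 9.95 ± 1.83 CPM at 6 h with wt MET and from 1.80 ± 0.613 to 0.787 ± 0.16 CPM with MET∆14, where it held 8 to 45 counts (F test adjusted p = 0.000567 and 0.0342). At 0 h GAB2 was lower with MET∆14 (log2 difference -3.68, SE 0.227, adjusted p = 5.92e-10), whereas GAB1 was higher there. The adaptor gene CRK rose in both lines, from 83.2 ± 2.65 to 135 ± 4.56 CPM at 3 h with MET∆14 and from 188 ± 0.75 to 242 ± 1.79 CPM with wt MET. PTPN11, which encodes the phosphatase SHP2 that GAB1 binds, rose in both lines, from 114 ± 3.78 to 184 ± 7.98 CPM at 6 h with MET∆14 and from 349 ± 9.34 to 450 ± 5.09 CPM with wt MET. The difference between the lines was called for CRK (adjusted p = 0.00388) and not for PTPN11 (adjusted p = 0.127). PIK3R2, a regulatory subunit gene of PI3K, was higher with MET∆14 at 0 h (101 ± 0.981 against 7.49 ± 2.5 CPM), but another gene on the same strand covers 76.4% of its exons, which makes its counts uncertain.

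Of 10 genes for co-receptors and partners of MET, 8 were called in wt MET cells (3 higher, 5 lower), 7 in MET∆14 cells (5 higher, 2 lower) and 7 in the difference (all genes tested: 40.3%, 54.1% and 37.6%). SDC1, the gene of the heparan sulfate proteoglycan syndecan-1, fell in wt MET cells from 151 ± 12.6 CPM before HGF to 73.9 ± 1.67 CPM at 6 h (mean log2 fold change -0.75, SE 0.0823). It stayed between 1020 and 1290 CPM in MET∆14 cells, where it was not called (F test adjusted p = 0.0554), and the difference was called (adjusted p = 5.71e-05). ITGB4, the beta subunit of a laminin receptor that can join MET, fell in wt MET cells from 150 ± 31.7 to 70.1 ± 5.93 CPM at 12 h and went from 2100 ± 9.84 to 2690 ± 280 CPM in MET∆14 cells (difference 0.66, SE 0.163, F test adjusted p = 8.54e-05). NRP1, which encodes neuropilin-1, fell in wt MET cells from 370 ± 25 to 282 ± 0.965 CPM at 3 h and rose in MET∆14 cells from 182 ± 4.02 to 258 ± 2.45 CPM (difference 0.84, SE 0.117, F test adjusted p = 0.000172). RANBP10 rose in wt MET cells from 30.5 ± 1.71 to 47.2 ± 1.08 CPM at 3 h and fell in MET∆14 cells from 32.5 ± 1.59 to 24.7 ± 0.0947 CPM (difference -0.77, SE 0.115, F test adjusted p = 0.000243).

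Of 24 genes for endocytosis, sorting and degradation, 21 were tested, and 11 were called in wt MET cells (7 higher, 4 lower), 13 in MET∆14 cells (10 higher, 3 lower) and 9 in the difference, where 40.3%, 54.1% and 37.6% of all genes tested were called. SH3KBP1, the gene of CIN85, which links CBL to the uptake of receptors, rose in wt MET cells from 131 ± 1.35 to 231 ± 13.4 CPM at 6 h. It rose less in MET∆14 cells, from 33.4 ± 0.282 to 41.0 ± 0.658 CPM at 12 h, and the difference was -0.41 (SE 0.0883, F test adjusted p = 0.00457). STAM, which encodes a part of the complex that sorts ubiquitinated receptors, rose more on average in MET∆14 cells, from 37.4 ± 1.91 to 62.1 ± 0.488 CPM at 6 h and 49.7 ± 1.75 CPM at 12 h, than in wt MET cells, where it went from 61.1 ± 1.58 to 66.6 ± 1.66 CPM at 6 h and 81.2 ± 0.134 CPM at 12 h (difference of the means 0.40, SE 0.0866, F test adjusted p = 0.000179). LRIG3, from a family of membrane proteins known for lowering receptor levels, fell in both lines at 3 h, from 43.8 ± 3.36 to 18.6 ± 0.351 CPM with MET∆14 and from 19.3 ± 2.74 to 8.84 ± 0.619 CPM with wt MET. At 12 h LRIG3 was at 27.0 ± 2.54 CPM with wt MET and at 38.2 ± 0.895 CPM with MET∆14, and its response differed between the lines (F test adjusted p = 0.0142). The early endosome gene RAB5A and the ESCRT gene TSG101 were lower with MET∆14 at 0 h, at 43.0 ± 2.40 against 183 ± 20.1 CPM and at 48.0 ± 1.40 against 169 ± 4.83 CPM (log2 differences -2.09 and -1.82). TSG101 was called in neither line, and its difference passed the threshold narrowly (F test adjusted p = 0.0422).

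Of 8 genes for other phosphatases and shedding, 3 were called in wt MET cells (2 higher, 1 lower), 7 in MET∆14 cells (3 higher, 4 lower) and 4 in the difference, beside 40.3%, 54.1% and 37.6% of all genes tested. TIMP3, an inhibitor of the proteases that shed membrane receptors, rose in wt MET cells from 0.862 ± 0.419 CPM at 0 h (8 and 16 counts) to 19.8 ± 8.65 CPM at 6 h, and stood at 2.49 ± 0.286 CPM at 12 h. With MET∆14, it fell from 180 ± 14.8 CPM before HGF to 62.1 ± 9.65 CPM at 12 h, and the mean difference was -3.81 (SE 0.467, F test adjusted p = 3.51e-05). PTPN1, which encodes the phosphatase PTP1B that acts on MET, rose in MET∆14 cells from 233 ± 0.221 to 433 ± 23.6 CPM at 3 h and was not called in wt MET cells, where it was between 95.4 and 107 CPM on average (difference 0.66, SE 0.0896, F test adjusted p = 0.000329). PTPN6, which encodes the phosphatase SHP1, fell in both lines, from 21.5 ± 0.722 to 8.86 ± 0.285 CPM at 6 h with MET∆14 and from 7.12 ± 0.976 to 1.77 ± 0.124 CPM at 12 h with wt MET, and its difference was called (F test adjusted p = 0.0029).

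**Figure D4:**
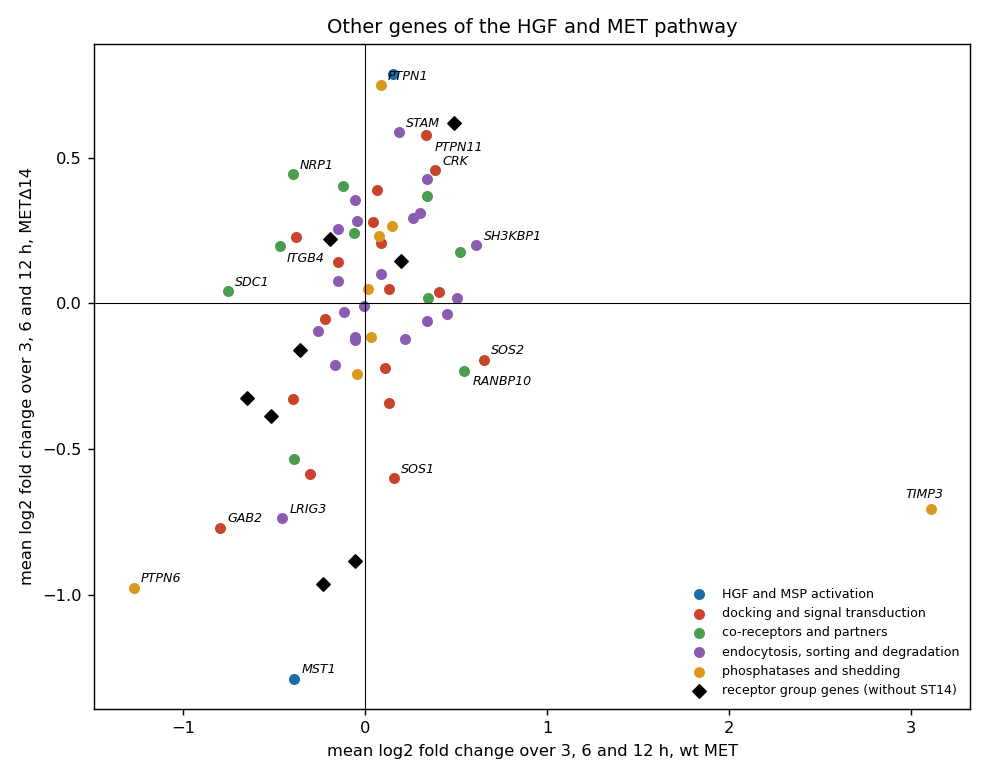
Log2 fold change averaged over the 3 times with HGF, in wt MET cells (x axis) and in MET∆14 cells (y axis) for 58 genes of the 5 lists (coloured points) and 8 of the genes described here (black diamonds). TIMP3 lies far to the right (3.11 with wt MET, -0.70 with MET∆14), PTPN6 lies low in both lines, and PRSS8 and TMPRSS2 are left out because they were at the floor in wt MET cells.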

How the data were processed

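PolyA RNA of 2 cell lines was sequenced after Illumina TruSeq preparation. The authors trimmed adapters and mapped reads to hg38 with STAR, and deposited raw read counts per gene. The submitters' processing notes name STAR 2.5.0 and RSEM 1.3.2. The role of RSEM, the annotation and the use of strand are not given in the sources used here. Columns were assigned to samples by their names, which spell the A549 line slightly differently, and 0 columns had no sample. The study also describes transcriptomes of cells with amplified wt MET, and none of the 16 libraries used here is labelled as such.

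Genes were filtered with edgeR 4.0.16 (filterByExpr, minimum count 10, total 15) in R 4.3.3, scaled by TMM and fitted over all 16 libraries with 1 coefficient per condition (robust quasi-likelihood F tests, limma 3.58.1). P-values were adjusted by Benjamini-Hochberg over 15067 genes, with a threshold of 0.05. The test over the times asks whether any of 3, 6 and 12 h differed from 0 h, and the mean log2 fold change is the average over these times. Each SE is the absolute log2 fold change divided by the square root of its F statistic. It can be too small where counts are low. CPM were computed with TMM library sizes, adding a prior count of 2 before taking log2. Lengths were unions of annotated exons. The floor was 3 counts per library, and intervals and floors cover counting error only. Depth limits precision for ST14, SPINT1 and GAB1 with wt MET.

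The 10 genes and the 5 lists (HGF and MSP activation, docking and signal transduction, co-receptors and partners, endocytosis, sorting and degradation, phosphatases and shedding) were chosen with earlier results of these data known. From the lists, up to 4 called genes with the largest rise and 4 with the largest fall per comparison could be named (mean log2 CPM of at least 1). For genes like MET, the 5 highest and 3 lowest r were taken (both lines averaging log2 CPM 3 or more). Scripts were tested on simulated data. Alternatives were DESeq2 1.42.0, its size factors in edgeR, other count filters, a replicate block, each line alone, each library left out, a minimum fold, and longest transcripts for lengths. Figures were drawn with Python 3.11.15 and matplotlib 3.10.9. Correlations of the deviations of same-numbered replicates from their condition means lay between -0.159 and 0.111, so the numbers were not taken to pair samples.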

Additional observations from a re-analysis of the deposited data

Results flagged for a closer look

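In edgeR's quasi-likelihood test of the difference itself, the response to HGF differed between the lines for 2 of the 9 tested genes of the receptor and its turnover and for 30 of the 60 list genes, against 37.6% of all genes tested. The genes given here are those among them that the naming rule picked for any comparison, and other list genes passed the same test. Among the genes of the receptor and its turnover these were MST1R (adjusted p = 0.00452), higher with MET∆14 and lower with wt MET at 12 h, and CBLB (0.00106), lower with MET∆14 at all 3 times. Among the signal transducers they were SOS2 (6.64e-05) and SOS1 (0.00192), both with a lower mean response with MET∆14, and CRK (0.00388), whose mean differed by 0.07 log2 units (SE 0.0819). Of the co-receptors and partners, SDC1 (5.71e-05), ITGB4 (8.54e-05) and NRP1 (0.000172) had a higher mean response with MET∆14, and RANBP10 (0.000243) a lower one. In the endocytosis list, STAM (0.000179) had a higher mean response with MET∆14, and SH3KBP1 (0.00457), LRIG3 (0.0142) and TSG101 (0.0422) a lower one. PTPN1 (0.000329) and PTPN6 (0.0029) had higher mean responses with MET∆14, and TIMP3 (3.51e-05) a lower one. Each form of MET was measured in 1 cell line, so these differences cannot be told apart from differences between the lines.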

How the results depend on the processing

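Each line fitted alone called 3 of the 9 genes in MET∆14 cells, against 45.4% of all genes tested in that fit. The F tests of MST1R (adjusted p = 0.0528) and SPINT1 (0.0568) missed the threshold there. The fit of wt MET cells alone still called MET, MST1R, SPINT2, CBL, CBLB and PTPRJ, against 56.4% of all genes tested in that fit. A minimum absolute log2 fold change of 1 left 0 genes in wt MET cells, 1 in MET∆14 cells, 1 in the difference, 5 at 0 h and 0 in the additive model, and of the list genes 6, 7 and 7 in wt MET cells, MET∆14 cells and the difference. The test over 3 and 6 h alone, chosen after seeing the data, called 3 genes in wt MET cells and 1 in the difference. Of all genes tested it called 29.4% and 28.9%. With 1 library left out, 3 to 6 genes were called in wt MET cells, 3 to 8 in MET∆14 cells, 2 to 6 in the difference, 6 to 8 at 0 h and 3 to 6 in the additive model, and of the list genes 26 to 42, 33 to 54, 24 to 45 and 49 to 52 (wt MET, MET∆14, difference, 0 h). The share of all genes tested that were called in each line and in the difference also changed with the library left out. These counts are therefore not a measure of these genes alone. Of the genes most like MET, 3 to 5 were again among the highest r with 1 library left out, and 2 by Spearman's rho. Signs turned for changes that were not called: for CBL at 0 h to 0.0086 (DESeq2 size factors), 0.0084 (DESeq2), 0.012 (no filter) and 0.095 (stricter filter), and with each line alone at 3 h for MST1R (0.029) and ST14 (0.0092) in MET∆14 cells. With 1 library left out, CBL ranged from -0.17 to 0.46 (difference, 12 h), -0.015 to 0.25 (mean difference) and -0.12 to 0.14 (0 h), CBLB from -0.15 to 0.076 (wt MET, mean), GAB1 from -0.16 to 0.23 (wt MET, 12 h) and MET from -0.014 to 0.092 (wt MET, 3 h). MST1R ranged at 3 h from -0.39 to 0.075 (difference), -0.053 to 0.015 (MET∆14) and -0.093 to 0.38 (wt MET), SPINT1 from -0.057 to 0.21 (difference, 12 h), -0.27 to 0.27 (3 h) and -0.027 to 0.26 (mean), and SPINT2 from -0.19 to 0.057 (MET∆14, 6 h). ST14 ranged from -4.81 to 0.038 (difference, 12 h), -4.67 to 0.98 (6 h), -0.12 to 0.051 (MET∆14, 3 h), -0.013 to 0.17 (mean), -0.15 to 4.70 (wt MET, 12 h) and -0.59 to 5.07 (6 h), where wt MET counts were too low. The cause was not tested. The replicate block changed no call of the 9 genes and gave 5819, 7857 and 5377 called genes against 6079, 8157 and 5660 (wt MET, MET∆14, difference).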
